A study of Mus musculus with 32 samples.

Results

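The messenger RNAs of 10 genes of the heat shock protein 90 (HSP90) chaperone system were compared between MYC-driven and MYCN-driven mouse medulloblastomas. They were picked by name from a count table of 37310 genes, with earlier results of these data known, and comprised 4 HSP90 paralogs (Hsp90aa1, Hsp90ab1, Hsp90b1 and Trap1), 3 heat shock factors (Hsf1, Hsf2 and Hsf4) and 3 co-chaperones (Cdc37, Ahsa1 and Ptges3). The table held 6 GMYC and 8 GTML tumor biopsies. GMYC mice carried the tetracycline transactivator under the Glt1 promoter together with a TRE-MYC transgene, and GTML mice used the same Glt1-driven Tet-OFF system to express MYCN. Glt1 is active in glial and other cells of the hindbrain, doxycycline turns both transgenes off, and both models were on the FVB/N background. The labels give no age for the animals, and by the study's account GTML tumors appear at a later age on average than GMYC tumors. Whether the tumors of a model came from separate animals is not stated in the labels, so p-values measure the spread between these biopsies. Most GTML libraries had been sequenced for an earlier study, and since the labels do not say which, model and time of sequencing cannot be fully told apart.

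HSP90 proteins are ATP-dependent chaperones that complete the folding of kinases, steroid receptors and other signaling proteins, and tumor cells are known to lean on them. Hsp90aa1 encodes the stress-inducible cytosolic form, Hsp90ab1 the constitutive cytosolic form, Hsp90b1 the form of the endoplasmic reticulum (ER, also called GRP94) and Trap1 the mitochondrial form. Heat shock factors are the transcription factors that raise chaperone genes under proteotoxic stress: Hsf1 is the main one and is held inactive by HSP90, Hsf2 acts in development and together with Hsf1, and Hsf4 is best known in the lens. Of the co-chaperones, Cdc37 loads kinases onto HSP90, Ahsa1 (AHA1) stimulates its ATPase and Ptges3 (p23) stabilizes its closed state. The study went on to treat such tumors with an HSP90 inhibitor, and the question here was how the 2 models differ in this system before any treatment. The treated cells were not analysed here.

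Total counts per tumor were 6218378 to 7279811 in GMYC and 4602294 to 6317404 in GTML. Levels are given in CPM, counts per 1000000 counts of the library after its total was scaled by edgeR's TMM factor. The GMYC transgene is human MYC by the study's account. Myc and Mycn here are the mouse genes, so their levels need not be those of the transgenes. Mouse Myc was at 33.3 to 165 CPM in GMYC and 2.59 to 8.66 CPM in GTML. Mycn was at 7.63 to 34.3 CPM and 119 to 191 CPM, and the models did not overlap in either gene. GMYC tumor 6 had 33.3 CPM of Myc, far below the other GMYC tumors, and 34.3 CPM of Mycn. GTML tumor 2 stood apart in the SHH target Gli1, at 14.1 CPM against 0.423 to 3.58 CPM in the other 13 tumors. The study describes 1 GTML tumor with an SHH-like signature but its text does not name it. Of 7 tested markers of medulloblastoma tissue 5 did not pass, among them Otx2 at 249.5 to 355 CPM in GMYC and 237 to 377 CPM in GTML, while Tubb3 was lower (log2 fold change -0.44) and Barhl1 higher (1.63) in GTML. The libraries also fell into 2 sides by their share of counts on small nucleolar RNAs (snoRNAs), with GMYC tumors 1 to 4 and GTML tumors 1 and 2 at 0.366% to 0.438% and the other 2 GMYC and 6 GTML tumors at 0.151% to 0.272%, a split that follows the order in which the samples were deposited. Y-linked genes were at 4 to 16 counts in 4 GTML tumors (2, 3, 5 and 8) and at 2115 to 3378 counts in all 6 GMYC tumors, so the sexes were not balanced between the models. Of the red blood cell markers, 4 of 5 (the hemoglobin genes) were lower in GTML, and the list summed to 53.3 to 176 CPM in GMYC and 41.5 to 134 CPM in GTML, with no marker at 0 in every tumor. None of 7 astrocyte markers passed the test in edgeR. An unadjusted p under 0.05 was found for 2 of them, with no share of all genes taken. The astrocyte markers summed to 801 to 1373 CPM in GMYC and 539 to 963 CPM in GTML. Among markers of other cells, Cbln3 of mature cerebellar neurons (1 of 6 tested; list sum 25.8 to 231 CPM in GMYC and 47.1 to 86.6 CPM in GTML), Olig2 of the oligodendrocyte lineage and Cd68 of macrophages were lower in GTML (log2 fold changes -3.39, -2.35 and -0.65), and Mog of oligodendrocytes and Kdr of endothelium were higher (1.56 and 1.34). The list sums in GMYC and GTML were 154 to 357 and 157 to 372 CPM for 7 oligodendrocyte markers, 135 to 223 and 80.0 to 297 CPM for 7 of microglia and macrophages, and 62.9 to 174 and 121 to 267 CPM for 6 of endothelium. The part of these cells in the results was not tested, and in bulk tissue fewer cells of a type and less RNA per cell cannot be told apart.

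All 10 genes passed the filter on low values, and 7 of them differed between the models at an adjusted p under 0.05 (edgeR's quasi-likelihood test, Benjamini-Hochberg adjustment over 21024 genes), where 21.2% of all genes tested did. Hsp90aa1, Trap1, Hsf2, Cdc37 and Ptges3 were lower in GTML, a direction called for 9.71% of all genes, and Hsf1 and Hsf4 were higher in GTML, as were 11.5% of all genes. Hsp90ab1, Hsp90b1 and Ahsa1 did not pass. The differences were small: 6 of the 7 were below 2-fold, and the exception, Hsf4, was the least abundant gene. At the stricter rule of adjusted p under 0.01 with a 2-fold change, met by 3.22% of all genes, edgeR called 0 of the 10, limma-voom called 0 (4.03% of all genes) and DESeq2 called 1 (Hsf4; 8.99% of all genes), while 8 of the 10 had an unadjusted p under 0.05 in edgeR. The models did not overlap for Trap1 and Cdc37, with every GMYC tumor above every GTML tumor, a pattern shown by 2.48% of all genes. Without GTML tumor 2 the calls were the same 7 genes in the same directions, with 30.7% of all genes called. With a covariate from the Y-linked genes, 3 of the 10 passed (Trap1, Hsf4 and Cdc37), against 8.04% of all genes. Within the 8 tumors of the lower snoRNA side 5 of the 10 passed (Hsp90aa1, Trap1, Hsf4, Cdc37 and Ptges3), against 13.3% of all genes. Within the 6 tumors of the higher side none did, where edgeR called 2 genes in all (0.0106%) and 4 of the 10 had an unadjusted p under 0.05. No share of all genes was taken at an unadjusted p under 0.05, so the counts at that rule have no background here.

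**Figure D1:**
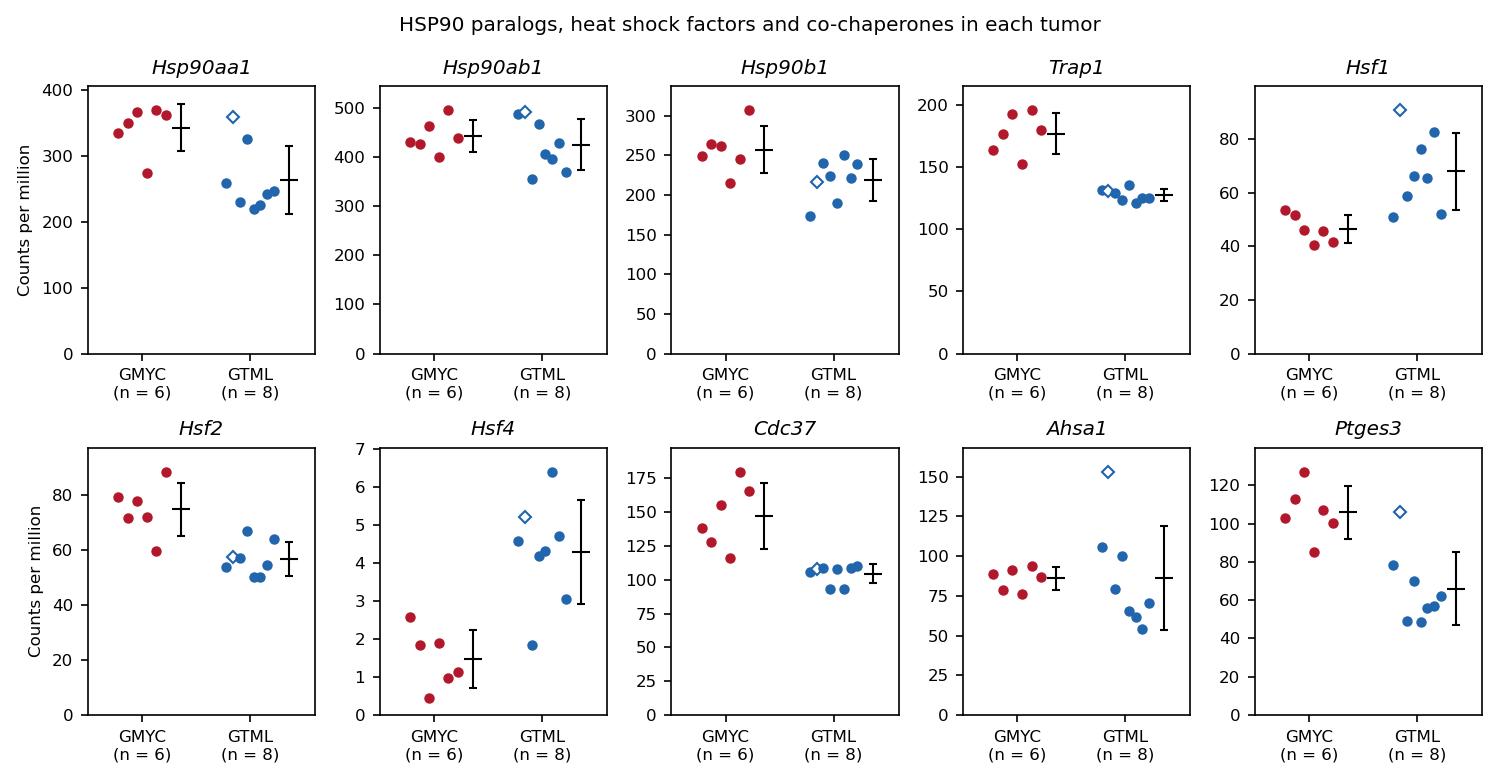
CPM (y axis, from 0) of each gene in 6 GMYC tumors (red) and 8 GTML tumors (blue), with the mean and SD beside each group in black and GTML tumor 2 as an open diamond. Trap1 and Cdc37 show no overlap between the models, Hsf1 and Hsf4 lie higher in GTML, and GTML tumor 2 holds the highest GTML value of Hsp90aa1, Hsp90ab1, Hsf1, Ahsa1 and Ptges3.

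Hsp90aa1 (ENSMUSG00000021270) was lower in GTML. Its lowest, median and highest levels were 274, 356 and 369 CPM in GMYC and 219, 245 and 359.6 CPM in GTML. In GTML, 6 tumors lay below every GMYC tumor, and tumors 2 and 4 reached into the GMYC range. The log2 fold change of GTML against GMYC was -0.38 (SE 0.120, 95% confidence interval -0.64 to -0.13, adjusted p = 0.0358 in edgeR), which is 1.30-fold lower. This call was close to the threshold: it was lost on leaving out any 1 of 8 tumors (GMYC 1, 3, 5 or 6, or GTML 3, 5, 7 or 8), with an adjusted p of at most 0.0786, and the log2 fold change then stayed between -0.46 and -0.34 over all 14 such fits. Without GTML tumor 2 it was -0.46 (adjusted p = 0.00592 in edgeR), and with the Y-linked covariate -0.37 (adjusted p = 0.138 in edgeR). Within the lower snoRNA side the log2 fold change was -0.57 (adjusted p = 0.0453 in edgeR) and within the higher side -0.09 (adjusted p = 0.869 in edgeR). GTML tumor 2, the highest of GTML in this gene, and tumor 1 were the only GTML tumors of the higher side. The contrast of the sides cannot be told apart from GTML tumor 2.

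Reads of Hsp90aa1 could be shared with 3 processed copies elsewhere in the genome, Gm12346, Gm5844 and Gm11910. Gm12346 is 99.5% identical to the Hsp90aa1 mRNA over 2255 bases. The copies held 43.4% to 47.5% of the combined counts of gene and copies in GMYC and 32% to 41.8% in GTML, so that the groups did not overlap in this share. The level of Hsp90aa1 itself is therefore uncertain. The copies moved in the same direction as the gene, Gm12346 with a log2 fold change of -0.74 (adjusted p = 0.0104 in edgeR) and Gm5844 with -0.88 (adjusted p = 0.00984 in edgeR). With gene and copies summed, the log2 fold change of Hsp90aa1 was -0.55 (adjusted p = 0.0142 in edgeR). A fall in GTML was also seen in pseudogenes of other genes, such as Rpl19-ps1 (-1.01, adjusted p = 0.00945 in edgeR). It was not seen in others, such as Rps27-ps1 (0.06, adjusted p = 0.886 in edgeR). No share over all pseudogenes was taken, and a general shift of reads on copies was not tested. The copies and the summed values are thus no separate support for a difference in the gene. This also applies to the copies of Hsp90ab1 and Ptges3 below.

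Hsp90ab1 (ENSMUSG00000023944) did not differ detectably between the models. Its lowest, median and highest levels were 399.9, 434 and 495 CPM in GMYC and 355, 418 and 491 CPM in GTML, and the groups overlapped over most of their range. GTML against GMYC gave a log2 fold change of -0.06 (SE 0.090, 95% confidence interval -0.25 to 0.14, adjusted p = 0.672 in edgeR). Its sign differed between the snoRNA sides, at 0.20 in the higher and -0.22 in the lower, neither past the test.

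The raw counts of Hsp90ab1 set a limit on this comparison. In the 6 GMYC tumors they lay between 2973 and 3109, a coefficient of variation of 1.65%, while the total counts of the same libraries varied by 5.97% and the counts of Hsp90aa1 by 7.80%. Those of Trap1 (5.12%) and Ahsa1 (4.24%, at 0.128 to 0.141 counts per exon base) also varied less than the totals, and those of the remaining members more. These counts amount to 0.991 to 1.04 counts per base of its 2999 annotated exon bases, and GTML tumor 2, with 3027 counts, was at 1.01 as well. In the other GTML tumors the gene was below that level, down to 0.631 counts per base. By its median over the tumors Hsp90ab1 ranked second of 19893 protein-coding genes, the highest value of any gene in any tumor was 1.25 and only 4 genes had a median of at least 0.9. At this level the counts of Hsp90ab1 did not follow the library total, and the CPM of the gene in GMYC, its fold change and its correlations are limited by that. The cause was not tested. Hsp90aa1 was at 0.519 to 0.653 counts per base in GMYC and Trap1 at 0.441 to 0.496. Hsp90ab1 also has near copies, Gm6368 and Gm14107, which held 14.8% to 16.5% of the combined counts in GMYC and 5.92% to 14.4% in GTML, and Gm6368 was lower in GTML (log2 fold change -0.74, adjusted p = 0.0243 in edgeR).

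**Figure D2:**
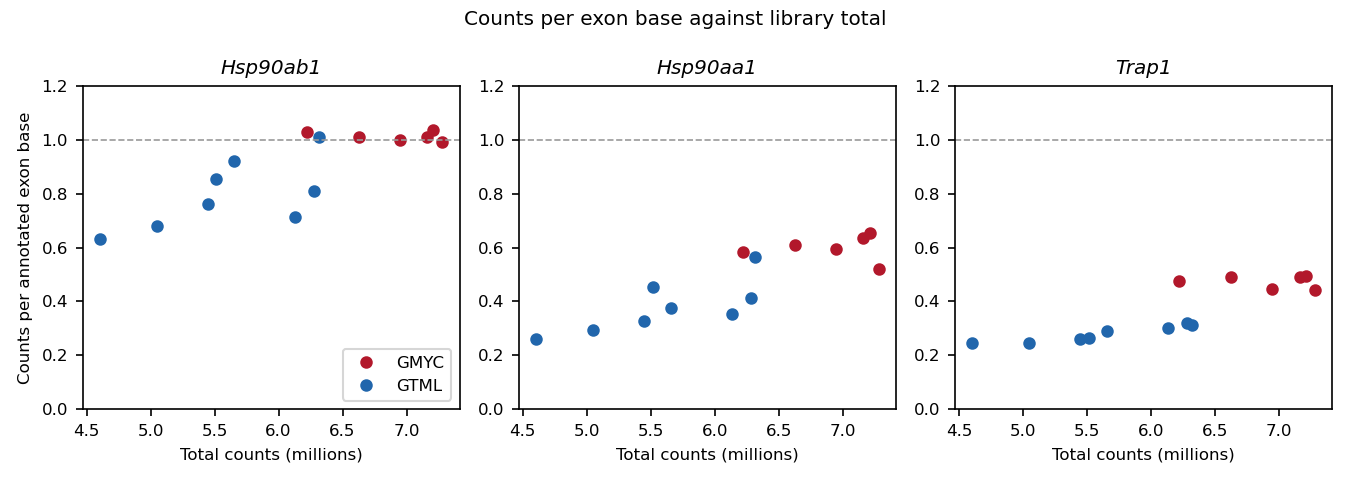
Counts per annotated exon base (y axis) against total counts in units of 1000000 (x axis) for Hsp90ab1, Hsp90aa1 and Trap1 in GMYC (red) and GTML (blue) tumors, with a dashed line at 1. All GMYC tumors lie within 0.991 to 1.04 for Hsp90ab1 over their range of totals, and the other 2 genes reach at most 0.653.

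Hsp90b1 (ENSMUSG00000020048) had levels of 215, 256 and 307 CPM in GMYC and 173, 223 and 251 CPM in GTML (lowest, median and highest). In GMYC, 3 tumors were above every GTML tumor, and 2 GTML tumors below every GMYC tumor. The log2 fold change of -0.23 (95% confidence interval -0.44 to -0.02) had an adjusted p of 0.105 in edgeR and did not pass. It passed with library factors taken only from genes under 0.2 counts per exon base, at -0.33 (adjusted p = 0.0363 in edgeR), a scaling that moved the median of all genes from 0.04 to -0.06. The promoter of Hsp90b1 is a textbook example of control by the unfolded protein response, through the ER stress element, whose letters are CCAAT and CCACG with 9 bases between them. The 250 bases before and 50 after its start in RefSeq (GRCm38.p6, chr10:86705395-86705694, minus strand) held 2 matches, in capitals, the first on the strand shown and the second on its complement, and 0.13% of 27025 promoters of that length held at least 1.
Hsp90b1: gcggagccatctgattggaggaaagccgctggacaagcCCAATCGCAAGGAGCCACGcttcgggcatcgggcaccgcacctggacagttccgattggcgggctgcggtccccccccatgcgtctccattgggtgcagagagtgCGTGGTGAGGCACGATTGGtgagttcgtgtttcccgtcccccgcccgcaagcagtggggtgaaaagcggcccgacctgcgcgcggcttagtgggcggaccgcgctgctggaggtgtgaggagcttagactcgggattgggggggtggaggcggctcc

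Trap1 (ENSMUSG00000005981) gave the clearest separation of the paralogs. Its levels were 153, 179 and 196 CPM in GMYC and 121, 127 and 136 CPM in GTML, and each of the 6 GMYC tumors was above all 8 GTML tumors. The means were 177 ± 16.6 CPM (SD, n = 6) and 128 ± 4.91 CPM (SD, n = 8). The log2 fold change was -0.47 (SE 0.077, 95% confidence interval -0.63 to -0.31, adjusted p = 0.00279 in edgeR), and it passed on leaving out any single tumor. It was -0.37 in the higher snoRNA side (adjusted p = 0.372 in edgeR) and -0.58 in the lower (adjusted p = 0.0189 in edgeR). An exon of Trap1 overlaps one of Dnase1 on the opposite strand, and how strand was handled in counting is not stated. Dnase1 was at 15.4 to 47.3 CPM in GMYC and 25.5 to 50.3 CPM in GTML (log2 fold change 0.08, adjusted p = 0.817 in edgeR).

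Per kilobase of the principal mRNA, Hsp90ab1 was the highest of the 10 genes in both models, at a mean of 175 ± 13.1 RPKM (SD, n = 6) in GMYC and 169 ± 20.8 RPKM (SD, n = 8) in GTML. Hsp90aa1 followed at 104 ± 10.9 RPKM in GMYC and 80.2 ± 15.6 RPKM in GTML. Its range overlapped that of Hsp90b1 in both models, at 83.6 to 113 and 76.0 to 109 RPKM in GMYC and at 66.7 to 109.6 and 61.4 to 88.8 RPKM in GTML. Hsp90b1 in turn overlapped Trap1 in GMYC, where Trap1 was at 65.8 to 84.5 RPKM. Trap1 averaged 76.4 ± 7.17 RPKM in GMYC and 55.2 ± 2.12 RPKM in GTML. At the low end were Hsf1, Hsf2 and the co-chaperone Cdc37, the last of these at 18.7 ± 3.07 RPKM in GMYC and 13.3 ± 0.901 RPKM in GTML. The low value of Cdc37 rests on a principal mRNA of 7851 bases, against 1377 to 3281 bases for the other members. In CPM its means were above those of Ptges3 and Ahsa1 in both models. Below these 3 genes was Hsf4 at 0.847 ± 0.440 RPKM in GMYC and 2.46 ± 0.787 RPKM in GTML. Over all annotated exons instead of the principal mRNA, the order changed in several places. In GMYC, Trap1 at 68.9 ± 6.47 RPKM was above Hsp90b1 at 63.8 ± 7.44 RPKM. Cdc37, at means of 17.9 RPKM in GMYC and 12.8 RPKM in GTML, was above Hsf1 and Hsf2 in both models. Ahsa1, which had been above Ptges3, fell below it in both models, to 19.6 RPKM in GMYC and 19.7 RPKM in GTML.

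The balance of the inducible and the constitutive cytosolic form was read within each library, as the log2 ratio of counts per mRNA base with 0.5 counts added, which needs no scaling between libraries. The ratio of Hsp90aa1 to Hsp90ab1 was -0.75 ± 0.10 (SD, n = 6) in GMYC and -1.08 ± 0.18 (SD, n = 8) in GTML. It ranged from -0.92 to -0.66 in GMYC and from -1.29 to -0.83 in GTML, and the groups overlapped in GTML tumors 2 and 4 and GMYC tumor 4. The difference of -0.33 had p = 0.002 in an exact two-sided permutation test. It was -0.37 without GTML tumor 2 (exact permutation p = 0.00233), -0.30 within the higher snoRNA side and -0.36 within the lower, where exact permutation p values were 0.267 and 0.0714 and, with 2 tumors in one group, could not go below 0.133 and 0.0714 for equal tails. With the near copies added to both genes the ratio was -0.12 ± 0.13 in GMYC and -0.54 ± 0.22 in GTML, so that the lead of Hsp90ab1 shrank in both, and the difference was -0.42 (exact permutation p = 0.002). The limit on the counts of Hsp90ab1 in GMYC applies to this ratio too.

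**Figure D3:**
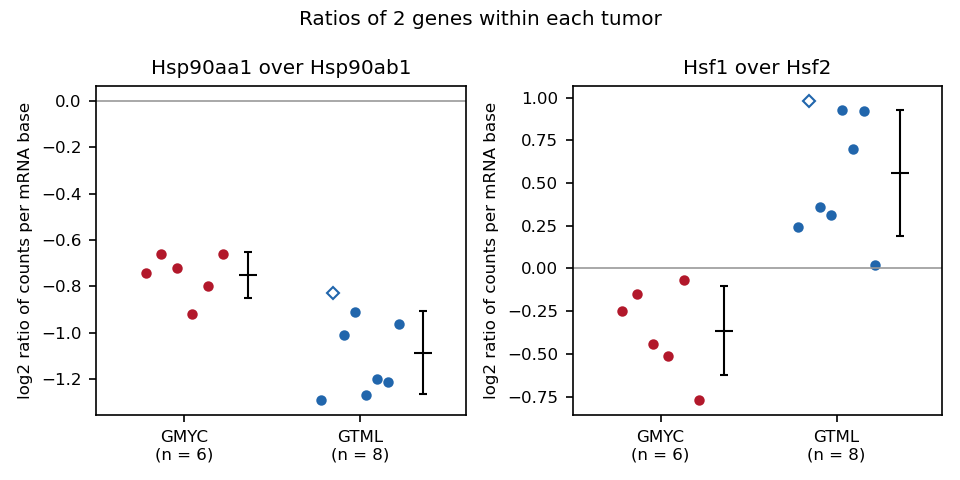
Log2 ratio of counts per mRNA base (y axis) of Hsp90aa1 over Hsp90ab1 and of Hsf1 over Hsf2 in each GMYC (red) and GTML (blue) tumor, with mean and SD in black and GTML tumor 2 as an open diamond. The first ratio is lower in GTML with some overlap, and the second is below 0 in all 6 GMYC tumors and above 0 in all 8 GTML tumors.

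Hsf1 (ENSMUSG00000022556), the factor that responds to HSP90 inhibition, was higher in GTML. Its levels were 40.5, 45.8 and 53.6 CPM in GMYC and 50.9, 65.9 and 90.7 CPM in GTML. In GTML, 6 tumors lay above every GMYC tumor, with tumors 1 and 8 inside the GMYC range, and GTML tumor 2 had the highest level. The models differed by a log2 fold change of 0.55 (SE 0.147, 95% confidence interval 0.23 to 0.86, adjusted p = 0.0186 in edgeR), and 0.48 without GTML tumor 2 (adjusted p = 0.0176 in edgeR). With the Y-linked covariate it was 0.55 and did not pass (adjusted p = 0.0762 in edgeR). It was 0.57 in the higher and 0.61 in the lower snoRNA side, where it passed in neither (adjusted p = 0.405 and 0.0737 in edgeR).

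Hsf2 (ENSMUSG00000019878) went the other way. Its levels were 59.9, 75.1 and 88.6 CPM in GMYC and 50.1, 56.0 and 67.0 CPM in GTML, with 5 GMYC tumors above every GTML tumor and GMYC tumor 5 inside the GTML range. The log2 fold change was -0.40 (SE 0.112, 95% confidence interval -0.64 to -0.16, adjusted p = 0.0219 in edgeR). The call was lost without GMYC tumor 1 (adjusted p = 0.0535 in edgeR) or GMYC tumor 3 (adjusted p = 0.0504 in edgeR), and the value was -0.42 and -0.39 in the higher and lower snoRNA sides, past the test in neither. It did not pass with the Y-linked covariate either (-0.42, adjusted p = 0.0848 in edgeR). The promoter of Hsf2 (RefSeq, GRCm38.p6, chr10:57486135-57486434, plus strand) is shown because it was the only one of 6 members' promoters at hand to hold the E-box CACGTG, the letters that MYC and MYCN are known to bind. Hsp90aa1, Hsp90ab1, Hsf1 and Hsf4 had no promoter at hand and were not searched for any motif. The match, in capitals, begins 83 bases before the start, and 7.24% of 27025 promoters held 1. A match is a description of the letters and does not say that either protein binds there.
Hsf2: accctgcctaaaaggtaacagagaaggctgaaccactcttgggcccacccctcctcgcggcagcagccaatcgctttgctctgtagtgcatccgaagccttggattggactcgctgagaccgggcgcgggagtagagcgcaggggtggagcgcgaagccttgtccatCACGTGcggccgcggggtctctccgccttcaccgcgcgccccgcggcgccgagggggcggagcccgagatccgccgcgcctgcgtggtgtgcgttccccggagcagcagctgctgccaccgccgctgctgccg

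Hsf4 (ENSMUSG00000033249) was the least abundant member, with 3 to 18 counts per tumor in GMYC and 11 to 33 in GTML. Its levels were 0.458, 1.48 and 2.58 CPM in GMYC and 1.83, 4.44 and 6.39 CPM in GTML. All but 1 of 8 GTML tumors were above every GMYC tumor, and GTML tumor 3 was not. The log2 fold change of 1.52 (SE 0.373, 95% confidence interval 0.73 to 2.31, adjusted p = 0.013 in edgeR) corresponds to 2.86-fold, and it passed on leaving out any single tumor. It was 1.53 in the higher snoRNA side (adjusted p = 0.356 in edgeR) and 1.92 in the lower (adjusted p = 0.0487 in edgeR). Counting error is a larger part of this value than of the others.

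Hsf1 and Hsf2 moved in opposite directions, so their ratio restates these 2 differences in the same tumors and is no separate support for them. The log2 ratio of Hsf1 to Hsf2 per mRNA base was -0.37 ± 0.26 (SD, n = 6) in GMYC and 0.56 ± 0.37 (SD, n = 8) in GTML, from -0.77 to -0.07 in the first and from 0.02 to 0.98 in the second. The difference was 0.92, with an exact two-sided permutation p = 0.000666. The groups did not overlap, GMYC tumor 5 and GTML tumor 8 being the nearest. No share over other pairs of genes was taken, and the ratio was not fitted with the Y-linked covariate. The difference was 0.86 without GTML tumor 2 (exact permutation p = 0.00117), 0.94 within the higher snoRNA side and 0.96 within the lower, where exact permutation p values of 0.133 and 0.0714 were the smallest possible for equal tails. Where the ratio crosses 0 depends on the lengths used for the genes, and the difference between the models does not.

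Cdc37 (ENSMUSG00000019471), the kinase co-chaperone, was lower in GTML, and its models did not overlap. Its levels were 116, 146 and 179.9 CPM in GMYC and 93.2, 108 and 110.3 CPM in GTML. This amounted to a log2 fold change of -0.49 (SE 0.103, 95% confidence interval -0.71 to -0.27, adjusted p = 0.0071 in edgeR), and it passed on leaving out any single tumor. It was -0.31 in the higher snoRNA side (adjusted p = 0.459 in edgeR) and -0.75 in the lower (adjusted p = 0.014 in edgeR). Its promoter (RefSeq, GRCm38.p6, chr9:21149885-21150184, minus strand) is shown because it held the only pair of heat shock element units among the members' promoters searched. The letters TTCNNGAA, in capitals, were found in 8.4% of 27025 promoters. The inverse pair GAANNTTC, in 7.95% of promoters, and elements of 3 alternating TTC and GAA units spaced by 2 bases, in 0.529%, had no match in the 6 members' windows.
Cdc37: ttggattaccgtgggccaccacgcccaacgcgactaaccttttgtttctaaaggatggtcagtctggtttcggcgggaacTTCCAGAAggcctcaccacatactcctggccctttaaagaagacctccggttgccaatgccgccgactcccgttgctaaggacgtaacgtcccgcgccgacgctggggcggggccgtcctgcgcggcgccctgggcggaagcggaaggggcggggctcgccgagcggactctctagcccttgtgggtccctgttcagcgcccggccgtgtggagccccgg

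Ptges3 (ENSMUSG00000071072), which encodes p23, had the largest drop of the 5 genes lower in GTML. Its levels were 85.2, 105 and 127 CPM in GMYC and 48.8, 59.4 and 106 CPM in GTML. All GTML tumors but 1 lay below every GMYC tumor, and GTML tumor 2 lay in the middle of the GMYC range. On the log2 scale the fold change was -0.68 (SE 0.167, 95% confidence interval -1.04 to -0.33, adjusted p = 0.0128 in edgeR), and -0.81 without GTML tumor 2 (adjusted p = 0.00154 in edgeR). With the Y-linked covariate it was -0.68 and did not pass (adjusted p = 0.07 in edgeR). Between the snoRNA sides the values differed, at -0.20 in the higher (adjusted p = 0.724 in edgeR) and -0.87 in the lower (adjusted p = 0.02 in edgeR). Of GTML, the higher side held only tumors 1 and 2, so this contrast cannot be told apart from GTML tumor 2. Near copies, Ptges3-ps and Gm11893, held 29.3% to 33.2% of the combined counts in GMYC and 24.1% to 31.7% in GTML, and with them added the log2 fold change was -0.74 (adjusted p = 0.0101 in edgeR).

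Ahsa1 (ENSMUSG00000021037), the ATPase activator, had nearly the same mean in both models but a wider spread in GTML. Its levels were 76.0, 87.9 and 93.8 CPM in GMYC and 54.4, 74.9 and 153 CPM in GTML. In GTML, 4 tumors were below every GMYC tumor and 3 (GTML tumors 1, 2 and 4) above every GMYC tumor. The fitted log2 fold change was 0.01 (SE 0.198, 95% confidence interval -0.41 to 0.43, adjusted p = 0.986 in edgeR), and -0.16 without GTML tumor 2 (adjusted p = 0.426 in edgeR). In the snoRNA sides it had opposite signs, 0.64 in the higher and -0.34 in the lower, past the test in neither (adjusted p = 0.284 and 0.299 in edgeR). The higher side held only tumors 1 and 2 of GTML, so the opposite signs cannot be told apart from these tumors.

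**Figure D4:**
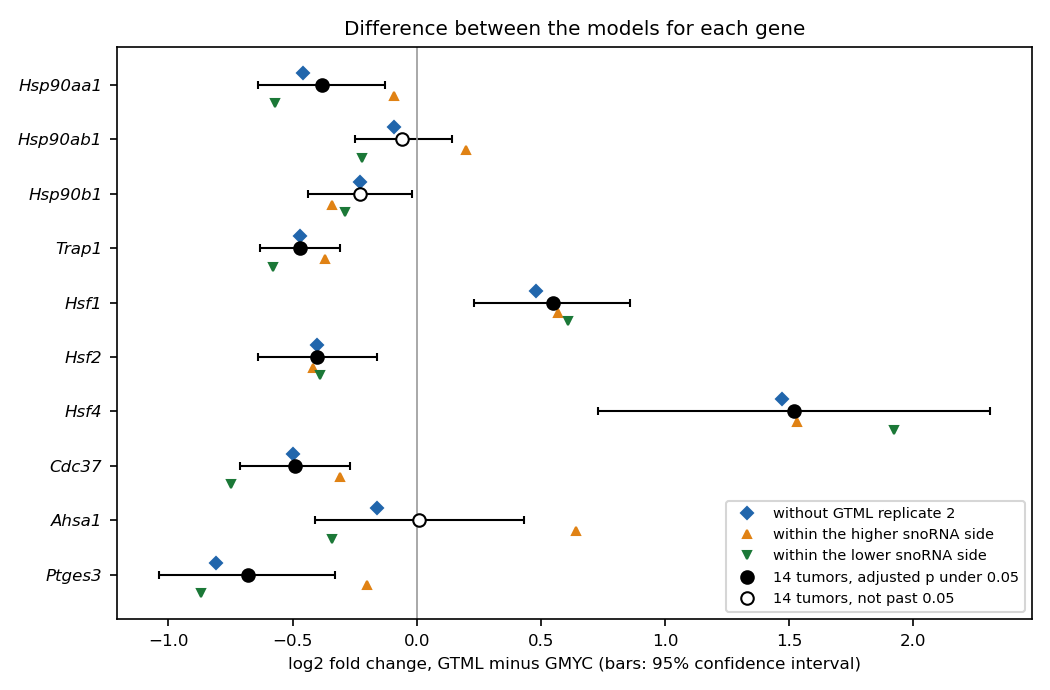
Log2 fold change of GTML against GMYC (x axis) for each gene, with 95% confidence intervals from the fit over 14 tumors, filled where the adjusted p was under 0.05. Colored markers give the value without GTML tumor 2 and within each snoRNA side. Ahsa1 and Hsp90ab1 lie on opposite sides of 0 in the 2 snoRNA sides, and the other 8 genes keep 1 direction.

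Some members rose and fell together from tumor to tumor within the models. After the mean of each model was subtracted from the log2 CPM, Pearson's r over the 14 tumors was 0.86 for Hsp90aa1 with Ptges3, 0.81 for Hsp90aa1 with Ahsa1, 0.83 for Ahsa1 with Ptges3 and 0.80 for Trap1 with Cdc37. It was lowest for Trap1 with Hsf4 at -0.58, followed by Hsf4 with Cdc37 at -0.56 and Hsp90ab1 with Hsp90b1 at -0.33. Over the 13 tumors without GTML tumor 2, which is high in Hsp90aa1, Ahsa1 and Ptges3, these values were 0.75, 0.64, 0.64, 0.79, -0.61, -0.59 and -0.36 in the same order. They are descriptions, since the 2 genes of a pair share each library and its scaling. Over the 14 tumors with no mean subtracted, the protein-coding genes most like Hsp90aa1 among 15333 tested were Glrx3 (Pearson's r = 0.97 of log2 CPM), Txn1 (0.97) and Pomp (0.96). For Hsp90ab1 they included Actb (0.95) and Rpl8 (0.93), which encode an actin and a ribosomal protein. Those most like Hsf1 were Ubap2l (0.93), Scaf8 (0.92) and Brd7 (0.91).

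Mouse Myc and Mycn stood in for the drivers and may not measure the transgenes. Hsp90aa1, Hsp90ab1 and Hsf1 were set against them within each model, in 6 relations of log2 CPM. None passed the test. Against Myc in the 6 GMYC tumors, Pearson's r was -0.18 for Hsp90aa1, 0.11 for Hsp90ab1 and 0.48 for Hsf1 (exact permutation p = 0.944, 1 and 0.478, each adjusted p = 1). Spearman's rho was 0.60, 0.54 and 0.43 (exact permutation p = 0.242, 0.297 and 0.419; adjusted p = 0.598, 0.598 and 0.629). GMYC tumor 6, low in Myc, weighed on these values. Without it and tumor 3, the 2 farthest from the median of Myc, Pearson's r over the 4 tumors left was 1.00, 0.80 and 0.67, so the coefficients rest on those 2 tumors. The counts of Hsp90ab1 were near 1 per exon base in all 6. Against Mycn in the 8 GTML tumors, Pearson's r was -0.04, 0.36 and 0.10 in the same order (exact permutation p = 0.903, 0.364 and 0.817, each adjusted p = 1). Spearman's rho was 0.14, 0.43 and -0.05 (exact permutation p = 0.752, 0.299 and 0.935; adjusted p = 0.902, 0.598 and 0.935). Without GTML tumors 3 and 6, Pearson's r over 6 tumors was -0.77, -0.19 and -0.09. Within the 6 GTML tumors of the lower snoRNA side Pearson's r was -0.12, 0.22 and 0.49, and no within-side value was computed for the GMYC tumors, of which a side held at most 4. How many reads of the transgenes the mouse genes Myc and Mycn received is not given in the sources used here.

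The other genes of the system were read in 5 lists of 83 genes, 81 of them tested. Hspd1 and Hspe1 are in both the list of heat shock response targets and that of mitochondrial partners. Counts by list can therefore add up to more than the totals, which count each gene once. In the fit over 14 tumors their shares of called genes were below the 21.2% of all genes: 19.4% of further co-chaperones, 9.09% of partners of the heat shock factors, 13.3% of heat shock response targets, 6.67% of ER partners and 18.2% of mitochondrial partners. This did not hold without GTML tumor 2, where every list but the ER partners was above the 30.7% of all genes. Of 31 further HSP90 co-chaperones, 5 were lower in GTML (Tomm70a, Sgta, Chordc1, Pih1d1 and Ruvbl2), 1 was higher (Tsc1) and 25 did not pass, with a median log2 fold change of -0.20 against 0.04 for all genes tested. Tomm70a, the mitochondrial import receptor that docks HSP90, was at 304 ± 41.4 CPM (SD, n = 6) in GMYC and 219 ± 16.9 CPM (SD, n = 8) in GTML (log2 fold change -0.47, SE 0.093, adjusted p = 0.00614 in edgeR). Sgta, a co-chaperone of tail-anchored proteins, was at 125 ± 10.6 CPM and 95.2 ± 7.70 CPM (log2 fold change -0.39, adjusted p = 0.00872 in edgeR). Tsc1, which slows the HSP90 ATPase and restrains mTOR, was at 171 ± 18.3 CPM and 245 ± 39.5 CPM (log2 fold change 0.52, adjusted p = 0.00904 in edgeR). Of 11 tested genes in the list of partners and regulators of the heat shock factors, 1 was higher in GTML and 10 did not pass, with a median of -0.06. The 1 was Hsf5, itself of the heat shock factor family, at 1.45 ± 0.593 CPM and 3.83 ± 1.58 CPM (adjusted p = 0.0204 in edgeR). Hsf5 lay near the filter on low values, at 0.458 to 2.09 CPM in GMYC. Rpa1 had a log2 fold change of -0.28 (adjusted p = 0.0574 in edgeR) and Crebbp, a histone acetyltransferase, 0.38 (adjusted p = 0.0648 in edgeR).

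Of 15 targets of the heat shock response, 2 were lower in GTML and 13 did not pass, with a median of 0.22. The 2 were Hspa4l, at 375 ± 40.4 CPM in GMYC and 252 ± 57.9 CPM in GTML (log2 fold change -0.58, adjusted p = 0.0116 in edgeR), and Hspa8, the constitutive HSP70 (log2 fold change -0.35, adjusted p = 0.046 in edgeR). The stress-inducible Hspa1a and Hspa1b, named after their values were seen, had log2 fold changes of 0.43 (SE 0.553) and 0.34 (SE 0.408), far within their error. Hspa4 was at -0.23 (adjusted p = 0.0657 in edgeR). Of 15 ER partners of Hsp90b1, 1 was lower in GTML and 14 did not pass, with a median of -0.12. This was Sdf2l1, a chaperone component of the ER, at 33.4 ± 5.23 CPM in GMYC and 16.9 ± 4.48 CPM in GTML (log2 fold change -0.98, SE 0.190, adjusted p = 0.00556 in edgeR). Dnajc3 and Cnpy3 had values of 0.48 and 0.26 (adjusted p = 0.126 and 0.129 in edgeR). Of 11 mitochondrial partners of Trap1, 2 were lower in GTML and 9 did not pass, with a median of -0.31. The 2 were subunits of succinate dehydrogenase, a known client of Trap1: Sdha, at 228 ± 14.7 CPM and 168 ± 27.6 CPM (log2 fold change -0.44, adjusted p = 0.0124 in edgeR), and Sdhb, at 114 ± 13.6 CPM and 79.8 ± 23.3 CPM (log2 fold change -0.52, adjusted p = 0.0396 in edgeR). Grpel1 was at -0.34 (adjusted p = 0.0532 in edgeR). In all, 12 genes of the lists passed, 14.8% of those tested (10 lower and 2 higher in GTML). Without GTML tumor 2 they were 24, or 29.6%, against 30.7% of all genes (21 lower and 3 higher). By list they were 10 of the co-chaperones (32.3%), 4 of the factor partners (36.4%), 5 of the targets (33.3%), 1 of the ER partners (6.67%) and 6 of the mitochondrial partners (54.5%). Within the lower snoRNA side 7 passed (4, 1, 1, 1 and 0 in the same order), or 8.64%, against 13.3% of all genes. Within the higher side edgeR called 0, against 0.0106% of all genes. There 11 had an unadjusted p under 0.05, a rule for which no share of all genes was taken. The total was 8 to 18 on leaving out any other single tumor, where 2617 to 4854 of all genes were called.

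**Figure D5:**
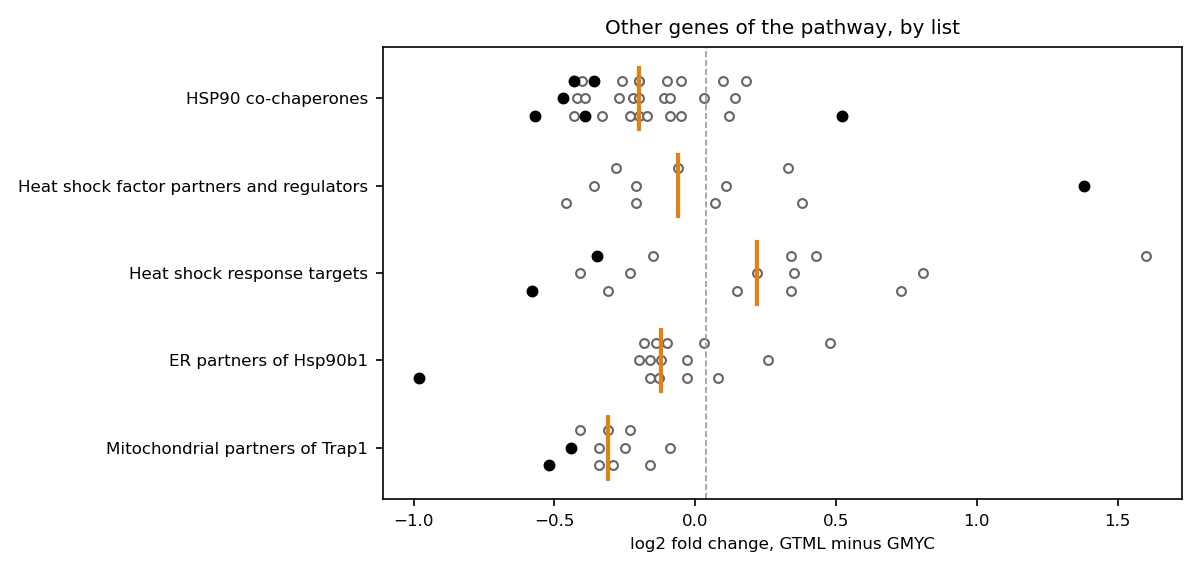
Log2 fold change of GTML against GMYC (x axis) for the genes of 5 lists (rows), filled where the adjusted p was under 0.05, with the median of each list in orange and that of all genes tested as a dashed line at 0.04. The medians run from -0.31 for the mitochondrial partners of Trap1 to 0.22 for the heat shock response targets, and most genes are open.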

How the data were processed

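RNA from 6 GMYC and 8 GTML biopsies was sequenced on an Ion Proton. The authors aligned reads to mm9 with STAR and then Bowtie and counted them with featureCounts, and the submitters' processing notes give STAR 2.4.0, Bowtie2 2.2 and Subread 1.5.2, while the study's methods name later releases of the first pair. The deposited counts per gene are whole numbers, not normalized. Symbols and lengths came from GENCODE M21 by Ensembl identifier. A further 18 columns of per-sample counts, which could not be mapped to samples, were not used.

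Counts were fitted with edgeR 4.0.16 in R 4.3.3 (TMM, quasi-likelihood, CPM above 1 in at least 3 tumors), with limma 3.58.1 and DESeq2 1.42.0 as alternatives, tested on simulated data first. The CPM and RPKM given were scaled by the TMM factors, and the CPM of the filter were not. Ratios and correlations used exact permutation tests (scipy 1.17.1). Near copies were pseudogenes at least 90% identical to a member's mRNA over at least 300 bases. Named genes were the 10 members, Myc, Mycn, the 3 smallest p-values of each list and the 3 genes most correlated with Hsp90aa1, Hsp90ab1 and Hsf1, of which 1 is not reported here. The members and lists were chosen with earlier results of these data known. The covariate from Y-linked genes, the sums with near copies and the correlations within the lower snoRNA side were added after seeing the data. Intervals do not cover errors of read assignment. No pair of libraries of a model agreed within sampling noise.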

Additional observations from a re-analysis of the deposited data

Results flagged for a closer look

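In 58 groups of values (each member, driver, named list gene and ratio in each model), 4 held a tumor whose gap to its nearest neighbor was large for the range of the group, where chance gives about 1 in 20. Among the members, Hsp90aa1 was lowest in GMYC tumor 4, at 274 CPM, against 335 CPM in the next. Myc was lowest in GMYC tumor 6, at 33.3 CPM, against 134 CPM in the next. Hspa8 was highest in GMYC tumor 5, at 329 CPM, against 259.8 CPM, and Sdha was lowest in GMYC tumor 4, at 199 CPM, against 227 CPM.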

How the results depend on the processing

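Of the 10 members, Trap1, Cdc37, Ptges3, Hsf1 and Hsf4 passed with each single tumor left out, and the number of members passing was 5 to 7 over those 14 fits. Number of members past an adjusted p of 0.05: it was 7 in the report, 6 with a term for the snoRNA split, 0 within the higher snoRNA side, 3 (Trap1, Hsf4 and Cdc37) with a covariate from Y-linked genes, which were at 4 to 16 counts in 4 GTML tumors, and 0 with the replicate number as a block. The replicate numbers do not pair the tumors (same-numbered deviations correlated over 0.1 in 1 of 6 numbers, and 1 of 6 tumors correlated best with its own number). Under that block the calls over all genes at an adjusted p of 0.05 fell from 4459 to 251, those at 0.01 and 2-fold from 676 to 10, and those in the pathway lists from 12 to 0. The cause was not tested. At the stricter rule 1 member passed with DESeq2 and 1 with counts thinned to the lowest total.

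All genes past 0.05 were 2851 with the snoRNA term, 2 and 2662 within the higher and lower sides, 1691 with the Y-linked covariate, and 2617 to 6430 with 1 tumor left out. Genes past 0.01 and 2-fold were 1891 with DESeq2, 418 with no filter, 296 with the snoRNA term, 2 and 127 within the sides, 370 among protein-coding genes, 59 with the Y-linked covariate, and 114 to 1624 with 1 tumor left out, the highest without GTML tumor 2. List genes past 0.05 were 19 with DESeq2, 0 and 7 within the sides, 24 with library factors from genes under 0.2 counts per base, 7 with the Y-linked covariate, and 8 to 24 with 1 tumor left out. With those library factors 2713 genes were lower and 1983 higher in GTML, against 2041 and 2418 in the report.

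Ahsa1, never past the test, had log2 fold changes of -0.05 with limma-voom, -0.01 with no filter, -0.34 within the lower side, -0.03 among protein-coding genes, -0.08 with those library factors, -0.10 with the Y-linked covariate and -0.16 to 0.07 with 1 tumor left out. Hsp90ab1 was at 0.20 within the higher side and 0.02 with the Y-linked covariate. The ratio of Hsp90aa1 to Hsp90ab1 differed by -0.30 and -0.36 within the sides and that of Hsf1 to Hsf2 by 0.94 and 0.96, all short of the threshold, and with 1 tumor left out by -0.37 to -0.30 and 0.84 to 1.00, past it each time. Without the 2 farthest tumors r was 1.00 for Hsp90aa1 against Myc, -0.19 for Hsp90ab1 against Mycn and -0.09 for Hsf1 against Mycn. With 1 tumor left out r ranged, against Myc, from -0.30 to 0.77 for Hsp90aa1, -0.07 to 0.64 for Hsp90ab1 and 0.19 to 0.69 for Hsf1, and against Mycn from -0.33 to 0.11, 0.16 to 0.49 and -0.10 to 0.42 in the same order.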
